A study of Mus musculus with 36 samples.

Results

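Fatty acid oxidation genes and targets of the nuclear receptor PPARA were followed in whole kidneys of mice that lacked the clock activator BMAL1 in the renal tubule, had been treated to induce diabetes, or both. The set held 43 genes, named by symbol and found among the 53715 genes counted in every library. All 43 were present, and all 43 passed the filter on low counts that left 15637 genes for testing. For description each was assigned to a single class: 21 genes as mitochondrial, 13 as peroxisomal and 9 as neither. A product may also occur outside its class, which this division does not show.

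Fatty acids enter the cell through membrane proteins, are bound by carrier proteins and are activated to acyl-CoA. Long-chain acyl groups cross the inner mitochondrial membrane as carnitine esters, and the matrix enzymes then shorten them in repeated rounds of dehydrogenation, hydration, a second dehydrogenation and thiolysis. Peroxisomes run a parallel pathway that begins with acyl-CoA oxidases and handles very long and branched chains. The proximal tubule relies on fatty acid oxidation for much of its ATP, and PPARA, a ligand-activated transcription factor, is known to drive many of these genes in liver and kidney.

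The mice fell into 4 groups of 9. STZ-cKOt mice carried Bmal1 lox/lox, Pax8-rtTA and LC1 and received streptozotocin (STZ), a toxin of the pancreatic beta cell, and STZ-control mice were littermates with Bmal1 lox/lox alone given the same toxin. PBS-cKOt and PBS-control mice had these genotypes and were injected with the vehicle, phosphate-buffered saline (PBS). All mice, controls included, drank doxycycline (2 mg/ml) for 2 weeks from 8 weeks of age. STZ (50 mg/kg) or PBS was injected on 5 consecutive days beginning 1 week later, and whole kidneys were collected 8 weeks past the final injection, 9 h after lights on. The Pax8-driven transactivator directs Cre to the renal tubule. Which kidney cells lost Bmal1 was not measured here. Strain and sex are not given in the sources used here.

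Each library had 16.9 to 22.3 M reads in genes, with a median of 20.1 M. Counts of Arntl, the symbol of Bmal1, sum all exons and do not show the deleted part. The level was 13.03 to 17.1 CPM (counts scaled to library size) in STZ-cKOt kidneys, against 1.18 to 13.4 CPM in STZ-control kidneys, and 12.9 to 17.4 CPM in PBS-cKOt kidneys, against 1.09 to 2.40 CPM in PBS-control kidneys. Summed over the gene, the level was thus higher in cKOt kidneys. The highest STZ-control value, 13.4 CPM, belonged to the library labelled STZ-control 2 and lay within the range of the cKOt libraries. On the first principal component over all tested genes, however, this library scored −13.5, within the range of the control libraries (−31.0 to −7.12). The cKOt libraries scored 9.12 to 29.2. The cause of its Arntl level was not tested. STZ-control 7 and 8 and PBS-cKOt 1 and 3 had the lowest scores on the second principal component over all tested genes (−54.2, −34.0, −40.2 and −25.8, next lowest −17.4). These 4 also had the steepest loss of level with exon length among the 36 libraries. Markers of fat cells had a summed level of 0.316 to 18.9 CPM (STZ-cKOt), 0.705 to 14.2 CPM (STZ-control), 0.156 to 50.9 CPM (PBS-cKOt) and 3.44 to 165 CPM (PBS-control). The highest value, 165 CPM, was in PBS-control 8, and 7 libraries, all treated with PBS, exceeded 20 CPM. They were PBS-control 4, 6, 8 and 9 and PBS-cKOt 3, 4 and 5. Leaving them out makes both PBS groups smaller, so a call can be lost with little change in its value. Markers of the proximal tubule had median sums of 20977 CPM (STZ-cKOt), 20448 CPM (STZ-control), 23692 CPM (PBS-cKOt) and 24954 CPM (PBS-control). In whole kidney, fewer cells of a type and less RNA per cell cannot be told apart. Where leaving out these libraries ended the call of a member, the loss is stated with the gene or with the comparison, in part with the value.

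With tubular deletion of Bmal1 more of the 43 genes fell than rose, in STZ-treated and in vehicle-treated mice. In STZ-cKOt against STZ-control kidneys 6 genes rose and 16 fell at an adjusted p under 0.05, and over all tested genes 9.52% rose and 10.1% fell. In PBS-cKOt against PBS-control kidneys 5 rose and 17 fell, against 10.9% higher and 12.5% lower over all tested genes. The median log2 fold change of the 43 was −0.12 in STZ mice and −0.13 in PBS mice, with medians of −0.01 and 0.00 over all tested genes. Those that fell in both comparisons included 4 of 5 genes of the carnitine shuttle, the fatty acid receptor Cd36, the carrier Fabp3, the long-chain dehydrogenase Acadl and the peroxisomal thiolases. Those that rose in both comparisons were Acsl1, which activates long-chain fatty acids, the thioesterase Acot2 and Pdk4, an inhibitory kinase of pyruvate dehydrogenase.

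These comparisons share no library. Of the 22 genes called in each, 16 were called in both (72.7% of either list), 3 higher and 13 lower, and none was called in opposite directions. The sign of the log2 fold change was the same for 37 of the 43. These counts were not made over all tested genes, so they do not show a trait particular to the members. Changes were modest: Acaa1b in STZ mice (−1.07) and Pdk4 in STZ mice (1.14) were the 2 members to reach a log2 fold change of 1 in either direction. The groups did not overlap for 6 members in STZ mice and 5 in PBS mice, where 3.50% and 5.12% of all tested genes did not overlap.

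**Figure D1:**
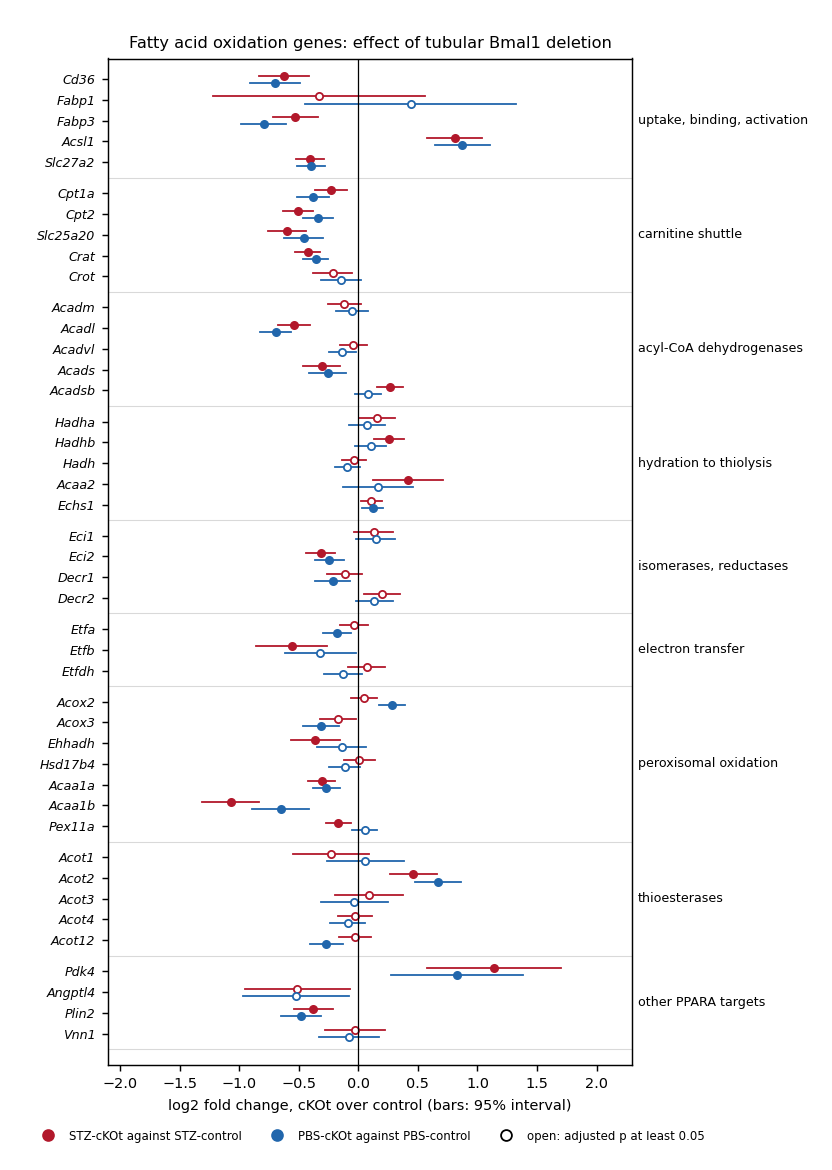
Log2 fold change of each of the 43 genes, cKOt over control, with its 95% interval, in STZ mice (red) and PBS mice (blue). Genes are grouped by role, and filled points passed an adjusted p of 0.05. The carnitine shuttle lies to the left of 0 in both comparisons, while Acsl1, Acot2 and Pdk4 lie to the right.

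Uptake, binding and activation came first in the pathway and showed falls beside one rise. Cd36, which takes long-chain fatty acids into the cell, had 409 to 548 CPM (median 447) in STZ-cKOt kidneys, against 532 to 881 CPM (median 778) in STZ-control kidneys. In the vehicle-treated mice it had 411 to 707 CPM (median 579.9) in PBS-cKOt kidneys, against 794 to 1171 CPM (median 875) in PBS-control kidneys. All 9 PBS-cKOt kidneys lay below every PBS-control kidney, and 7 of 9 STZ-cKOt kidneys lay below every STZ-control kidney. The log2 fold change was −0.62 ± 0.10 in STZ mice (adjusted p = 1.5e-05, edgeR quasi-likelihood test) and −0.70 ± 0.10 in PBS mice (adjusted p = 1.5e-06), where ± is the standard error.

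Fabp3, the heart-type fatty acid binding protein, had 21.8 to 33.99 CPM (median 26.6) in STZ-cKOt kidneys, against 32.1 to 46.9 CPM (median 39.9) in STZ-control kidneys. The vehicle-treated mice had 17.2 to 31.9 CPM (median 19.6) in PBS-cKOt kidneys, against 30.8 to 45.1 CPM (median 36.6) in PBS-control kidneys. In each comparison 8 of 9 cKOt kidneys lay below every control kidney. Fabp3 fell by 0.53 on the log2 scale in STZ mice (adjusted p = 3.2e-05) and by 0.79 in PBS mice (adjusted p = 1.5e-08, edgeR). Of its exon bases 19.6% are shared with other annotated genes.

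Slc27a2, a very-long-chain acyl-CoA synthetase and fatty acid transporter of the proximal tubule, averaged 2854 ± 203 CPM in STZ-cKOt and 3781 ± 368 CPM in STZ-control kidneys, and 3561 ± 129.6 CPM in PBS-cKOt and 4694 ± 407 CPM in PBS-control kidneys (SD, n = 9 each). It fell in both comparisons (−0.41 ± 0.06 in STZ mice and −0.40 ± 0.06 in PBS mice), and neither pair of groups overlapped. In STZ mice the margin was narrow, 3236 CPM in the highest STZ-cKOt kidney against 3239.6 CPM in the lowest STZ-control kidney. The liver-type binding protein Fabp1 was close to silent, at 0.318 ± 0.264 CPM in STZ-cKOt and 0.391 ± 0.175 CPM in STZ-control kidneys, and 0.452 ± 0.383 CPM in PBS-cKOt and 0.326 ± 0.212 CPM in PBS-control kidneys, and passed no test.

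Acsl1, a long-chain acyl-CoA synthetase, moved the other way. It had 256 to 367 CPM (median 298) in STZ-cKOt kidneys, against 111 to 240.2 CPM (median 184) in STZ-control kidneys. Without STZ it had 249.9 to 492 CPM (median 322) in PBS-cKOt kidneys, against 163 to 252 CPM (median 180.1) in PBS-control kidneys. All 9 STZ-cKOt kidneys lay above every STZ-control kidney, and 8 of 9 PBS-cKOt kidneys lay above every PBS-control kidney. Acsl1 was 1.75-fold higher in STZ mice (adjusted p = 7.1e-07) and 1.83-fold higher in PBS mice (adjusted p = 1.3e-07, edgeR).

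In the carnitine shuttle 4 of 5 genes fell in each comparison, with a median log2 fold change of −0.43 in STZ mice and −0.36 in PBS mice. Its summed level was 1212 to 1414 CPM in STZ-cKOt kidneys, against 1408 to 1775 CPM in STZ-control kidneys. In vehicle-treated mice the sum was 1287 to 1576 CPM in PBS-cKOt kidneys, against 1628 to 1949.5 CPM in PBS-control kidneys. The PBS groups did not overlap, and the STZ groups overlapped by a few CPM.

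Cpt1a, the outer-membrane palmitoyltransferase that limits the rate of the shuttle, averaged 461 ± 35.4 CPM in STZ-cKOt and 541 ± 59.4 CPM in STZ-control kidneys, and 458 ± 50.9 CPM in PBS-cKOt and 595 ± 46.02 CPM in PBS-control kidneys (SD, n = 9 each). It fell by 0.23 on the log2 scale in STZ mice (adjusted p = 0.010) and by 0.38 in PBS mice (adjusted p = 3.4e-05, edgeR). Its groups overlapped in both.

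Slc25a20, the translocase that carries acylcarnitines across the inner membrane, had 29.7 to 46.2 CPM (median 34.2) in STZ-cKOt kidneys, against 45.4 to 61.01 CPM (median 53.01) in STZ-control kidneys. In PBS mice it had 30.9 to 47.2 CPM (median 37.2) in PBS-cKOt kidneys, against 43.1 to 66.4 CPM (median 50.7) in PBS-control kidneys. In each comparison 8 of 9 cKOt kidneys lay below every control kidney, the exception in STZ mice being STZ-cKOt 9 at 46.2 CPM. The log2 fold change was −0.60 ± 0.08 (adjusted p = 2.4e-07) in STZ mice and −0.46 ± 0.08 (adjusted p = 2.6e-05, edgeR) in PBS mice.

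Cpt2, which returns the acyl group to CoA in the matrix, had 106 to 150.0 CPM (median 116) in STZ-cKOt kidneys, against 152 to 189 CPM (median 169.9) in STZ-control kidneys. In PBS mice the spread was 124 to 159 CPM (median 139.9) in PBS-cKOt kidneys, against 148 to 209.8 CPM (median 176) in PBS-control kidneys. The STZ groups did not overlap, and 6 of 9 PBS-cKOt kidneys lay below every PBS-control kidney. Cpt2 fell by 0.50 on the log2 scale in STZ mice (adjusted p = 6.7e-08) and by 0.34 in PBS mice (adjusted p = 8.3e-05, edgeR).

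Crat, which makes acetylcarnitine, averaged 137 ± 13.9 CPM in STZ-cKOt and 185 ± 10.4 CPM in STZ-control kidneys, and 148 ± 9.16 CPM in PBS-cKOt and 189.8 ± 10.2 CPM in PBS-control kidneys (SD, n = 9 each). Both pairs of groups were fully separate, with log2 fold changes of −0.43 ± 0.05 in STZ mice and −0.36 ± 0.05 in PBS mice. Crot, the peroxisomal carnitine octanoyltransferase, averaged 548 CPM in STZ-cKOt and 636 in STZ-control kidneys, and 674 in PBS-cKOt and 744 in PBS-control kidneys. Its log2 fold changes of −0.22 (adjusted p = 0.058) and −0.14 (adjusted p = 0.21, edgeR) did not pass the test.

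**Figure D2:**
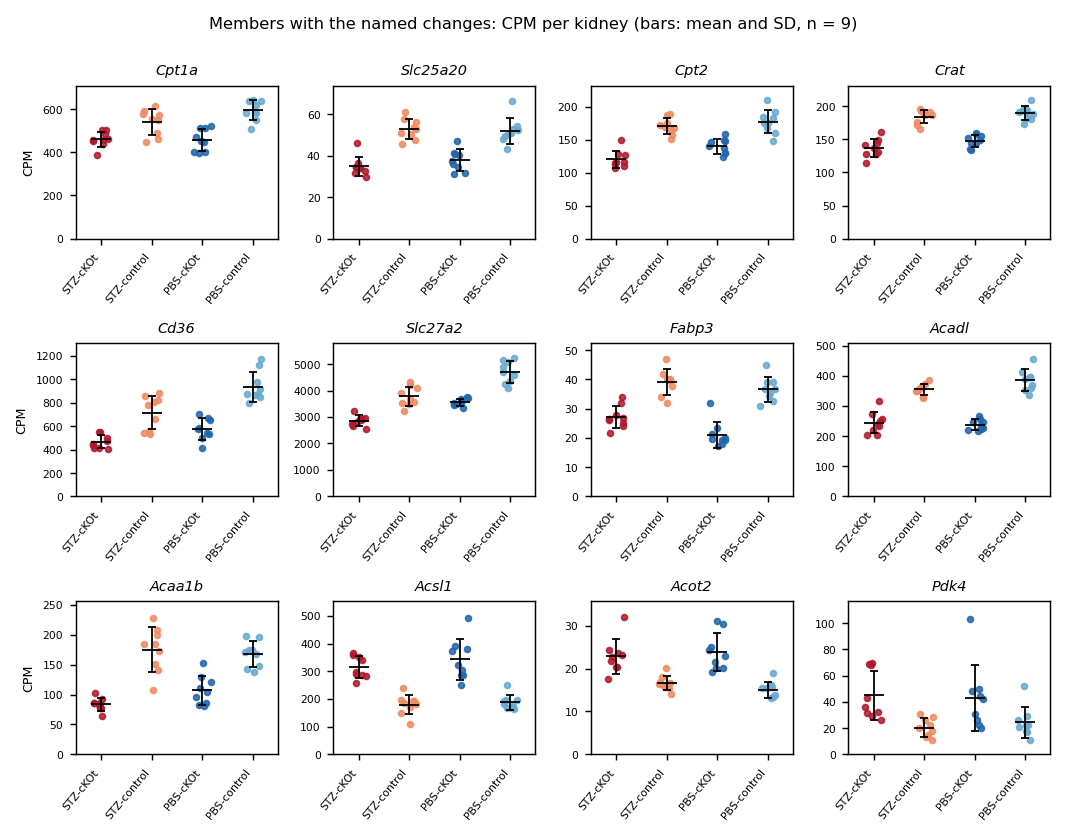
CPM of 12 members in each kidney, with the mean and SD of the 9 mice of a group, in the order STZ-cKOt, STZ-control, PBS-cKOt and PBS-control. The 4 carnitine shuttle genes of the top row, and Cd36, Slc27a2, Fabp3, Acadl and Acaa1b, are lower in both cKOt groups, and Acsl1, Acot2 and Pdk4 are higher.

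Among the acyl-CoA dehydrogenases, which start each mitochondrial round, the fall was uneven. Acadl, the long-chain enzyme, had 204 to 315 CPM (median 239) in STZ-cKOt kidneys, against 327 to 386 CPM (median 357) in STZ-control kidneys. The vehicle-treated mice had 218 to 268 CPM (median 238) in PBS-cKOt kidneys, against 337 to 457 CPM (median 389.9) in PBS-control kidneys. Neither pair of groups overlapped, and Acadl was 1.46-fold lower in STZ mice (adjusted p = 3.6e-08) and 1.62-fold lower in PBS mice (adjusted p = 8.6e-11, edgeR).

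Acads, the short-chain enzyme, averaged 151 CPM in STZ-cKOt and 188 in STZ-control kidneys, and 183 in PBS-cKOt and 219 in PBS-control kidneys. It fell by 0.31 in STZ mice and by 0.26 in PBS mice on the log2 scale, with adjusted p of 0.0029 and 0.012 (edgeR). Without the 7 libraries rich in fat cell markers, the value of Acads in PBS mice was −0.20 with an adjusted p of 0.22. Acadsb, which acts on short branched chains, averaged 188 CPM in STZ-cKOt and 156 in STZ-control kidneys, and 183 in PBS-cKOt and 173 in PBS-control kidneys, and rose in STZ mice (0.27, adjusted p = 3.3e-04) with a log2 fold change of 0.08 in PBS mice that did not pass. Acadm, the medium-chain enzyme and the most abundant of the 5 per exon length, averaged 929.7 CPM in STZ-cKOt and 1009 in STZ-control kidneys, and 1024 in PBS-cKOt and 1062 in PBS-control kidneys, and its log2 fold changes were −0.12 and −0.05. Acadvl, the very-long-chain enzyme, averaged 251 CPM in STZ-cKOt and 259 in STZ-control kidneys, and 247 in PBS-cKOt and 272 in PBS-control kidneys, with log2 fold changes of −0.04 and −0.13. Neither Acadm nor Acadvl passed the test, and 42.9% of the exon bases of Acadvl lie opposite exons of Dvl2.

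The enzymes from hydration to thiolysis showed no fall in either comparison. Echs1, the short-chain enoyl-CoA hydratase, averaged 224 CPM in STZ-cKOt and 208 in STZ-control kidneys, and 246 in PBS-cKOt and 226 in PBS-control kidneys. It rose slightly in PBS mice (0.12 ± 0.04, adjusted p = 0.045, edgeR), a call lost under 6 of 14 alternative settings, among them leaving out PBS-control 8 (adjusted p = 0.056), the 7 libraries rich in fat cell markers (0.059) or STZ-control 7 and 8 and PBS-cKOt 1 and 3 (0.098). Acaa2, the mitochondrial thiolase, averaged 188 CPM in STZ-cKOt and 141 in STZ-control kidneys, and 158 in PBS-cKOt and 141 in PBS-control kidneys. It rose in STZ mice (0.42 ± 0.15, adjusted p = 0.035), but the value was 0.28 with an adjusted p of 0.14 without STZ-cKOt 9, whose 331 CPM was the highest of its group. Without the library labelled STZ-control 2 the value for Acaa2 was 0.40 with an adjusted p of 0.059, and without STZ-control 7 and 8 and PBS-cKOt 1 and 3 it was 0.39 with an adjusted p of 0.076.

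Hadha and Hadhb encode the alpha and beta chains of the trifunctional protein and lie head to head on chromosome 5, with 85 bases between their annotated ends. These 85 bases are shown because they lie between the starts of both genes, in the orientation of Hadhb (RefSeq, GRCm38.p6, chr5:30155163-30155247, plus strand), and none of the motifs described further on was found in them.
Hadha and Hadhb: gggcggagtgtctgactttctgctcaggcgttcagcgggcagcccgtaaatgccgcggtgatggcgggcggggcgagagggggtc
Hadhb averaged 92.2 CPM in STZ-cKOt and 77.1 in STZ-control kidneys, and 82.8 in PBS-cKOt and 77.1 in PBS-control kidneys, and rose in STZ mice (0.26 ± 0.06, adjusted p = 0.0025, edgeR). Hadha averaged 207 CPM in STZ-cKOt and 185 in STZ-control kidneys, and 187 in PBS-cKOt and 177 in PBS-control kidneys, and its log2 fold changes were 0.16 and 0.08, with adjusted p of 0.13 and 0.50. Hadh, the dehydrogenase for shorter chains, averaged 526 CPM in STZ-cKOt and 539.6 in STZ-control kidneys, and 549 in PBS-cKOt and 585 in PBS-control kidneys and did not pass the test (−0.04 and −0.09).

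Isomerases and reductases bring unsaturated chains into the pathway. Eci2, a peroxisomal enoyl-CoA isomerase, averaged 100.2 CPM in STZ-cKOt and 125 in STZ-control kidneys, and 105 in PBS-cKOt and 124 in PBS-control kidneys, and fell by 0.32 in STZ mice (adjusted p = 1.1e-04) and by 0.25 in PBS mice (adjusted p = 0.0023) on the log2 scale. Without the 7 libraries rich in fat cell markers, Eci2 had −0.13 in PBS mice with an adjusted p of 0.27. Decr1, the mitochondrial dienoyl-CoA reductase, averaged 256 CPM in STZ-cKOt and 277 in STZ-control kidneys, and 239 in PBS-cKOt and 277 in PBS-control kidneys, and fell in PBS mice (−0.22, adjusted p = 0.025) with a value of −0.12 in STZ mice. The call for Decr1 was lost under 3 of 14 alternative settings, one of them leaving out those 7 libraries (−0.19, adjusted p = 0.22). Its peroxisomal counterpart Decr2 averaged 67.6 CPM in STZ-cKOt and 58.9 in STZ-control kidneys, and 70.9 in PBS-cKOt and 64.6 in PBS-control kidneys, with log2 fold changes of 0.20 and 0.14. Eci1, the mitochondrial isomerase, averaged 65.1 CPM in STZ-cKOt and 59.5 in STZ-control kidneys, and 61.7 in PBS-cKOt and 55.8 in PBS-control kidneys, with 0.13 and 0.15. Neither Decr2 nor Eci1 passed.

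The electron transfer flavoprotein passes electrons from the dehydrogenases to ubiquinone. Etfb, its beta chain, had 17.9 to 32.2 CPM (median 24.9) in STZ-cKOt kidneys, against 24.5 to 57.7 CPM (median 32.2) in STZ-control kidneys. In vehicle-treated mice the span was 16.7 to 36.7 CPM (median 22.5) in PBS-cKOt kidneys, against 25.2 to 38.04 CPM (median 31.03) in PBS-control kidneys. The groups overlapped in both comparisons. Etfb fell in STZ mice (−0.56 ± 0.15, adjusted p = 0.0050) and had a value of −0.32 ± 0.15 in PBS mice (adjusted p = 0.11, edgeR). Without the library labelled STZ-control 2, STZ-control 7 and 8 and PBS-cKOt 1 and 3 the value in STZ mice was −0.31 with an adjusted p of 0.056, and that in PBS mice was −0.49 with an adjusted p of 0.0011. Of the exon bases of Etfb 53.0% are shared with Gm45233 on the same strand, and reads there are ambiguous, so its level is uncertain. Etfa, the alpha chain, averaged 313 CPM in STZ-cKOt and 321 in STZ-control kidneys, and 323 in PBS-cKOt and 365 in PBS-control kidneys, and fell in PBS mice (−0.18, adjusted p = 0.023). This call for Etfa was lost under 2 of 14 settings, one of them leaving out the 7 libraries rich in fat cell markers (−0.14, adjusted p = 0.27). Etfdh, the oxidoreductase that takes the electrons on, averaged 197 CPM in STZ-cKOt and 187 in STZ-control kidneys, and 195 in PBS-cKOt and 213 in PBS-control kidneys, and did not pass (0.07 and −0.13).

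Peroxisomal oxidation held Acaa1b, whose fall in STZ mice was the largest of the 43 in these comparisons. This peroxisomal thiolase had 63.8 to 102 CPM (median 85.1) in STZ-cKOt kidneys, against 107 to 229 CPM (median 184) in STZ-control kidneys. In PBS mice it had 80.4 to 153 CPM (median 104) in PBS-cKOt kidneys, against 137 to 199 CPM (median 171) in PBS-control kidneys. The STZ groups did not overlap, and 8 of 9 PBS-cKOt kidneys lay below every PBS-control kidney. Acaa1b was 2.10-fold lower in STZ mice (log2 −1.07 ± 0.12, adjusted p = 4.8e-09) and 1.57-fold lower in PBS mice (log2 −0.65 ± 0.12, adjusted p = 5.1e-05, edgeR). The related thiolase Acaa1a averaged 73.6 CPM in STZ-cKOt and 91.1 in STZ-control kidneys, and 76.9 in PBS-cKOt and 92.6 in PBS-control kidneys, and fell by 0.31 and 0.27 on the log2 scale. Reads that fit both genes were not counted, so the division of reads between them is uncertain. Of the exon bases of Acaa1b 11.4% lie opposite exons of Dlec1, which averaged 54.6 CPM over all libraries. Whether the counting was by strand is not given.

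Ehhadh, the peroxisomal bifunctional enzyme of straight chains, averaged 523 CPM in STZ-cKOt and 671 in STZ-control kidneys, and 648 in PBS-cKOt and 715 in PBS-control kidneys, and fell in STZ mice (−0.36 ± 0.10, adjusted p = 0.0092) without passing in PBS mice (−0.14). Acox3, an oxidase of branched chains, averaged 369 CPM in STZ-cKOt and 415 in STZ-control kidneys, and 376 in PBS-cKOt and 467 in PBS-control kidneys, and fell in PBS mice (−0.31, adjusted p = 0.0017) without passing in STZ mice (−0.17). Acox2, the oxidase of bile acid intermediates, averaged 125 CPM in STZ-cKOt and 121 in STZ-control kidneys, and 141 in PBS-cKOt and 116 in PBS-control kidneys. It rose in PBS mice (0.28, adjusted p = 1.2e-04), and its value in STZ mice was 0.05. Pex11a, which takes part in peroxisome division, averaged 56.7 CPM in STZ-cKOt and 63.6 in STZ-control kidneys, and 67.9 in PBS-cKOt and 65.4 in PBS-control kidneys. It fell in STZ mice (−0.17, adjusted p = 0.020), a call lost without the library labelled STZ-control 2 (−0.14, adjusted p = 0.059), without STZ-control 7 and 8 and PBS-cKOt 1 and 3 (−0.14, adjusted p = 0.059) and without all 5 (−0.09, adjusted p = 0.21). Hsd17b4, the second bifunctional enzyme, averaged 232 CPM in STZ-cKOt and 231 in STZ-control kidneys, and 233 in PBS-cKOt and 253 in PBS-control kidneys, and did not pass (0.01 and −0.12). A value past the threshold in one treatment and not in the other does not show that the treatments differ, and no member passed the test of that difference, given further on.

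Thioesterases release free fatty acid from acyl-CoA. Acot2, the mitochondrial enzyme, had 17.6 to 32.1 CPM (median 22.7) in STZ-cKOt kidneys, against 14.2 to 20.1 CPM (median 16.4) in STZ-control kidneys. Its level in the PBS groups was 19.2 to 31.1 CPM (median 22.9) in PBS-cKOt kidneys, against 13.1 to 18.95 CPM (median 15.4) in PBS-control kidneys. The PBS groups were separate, and 8 of 9 STZ-cKOt kidneys lay above every STZ-control kidney. Acot2 was 1.38-fold higher in STZ mice (adjusted p = 4.2e-04) and 1.59-fold higher in PBS mice (adjusted p = 1.2e-06, edgeR). Its neighbours on chromosome 12 passed in neither comparison. The cytosolic Acot1 averaged 29.2 CPM in STZ-cKOt and 34.3 in STZ-control kidneys, and 29.1 in PBS-cKOt and 27.9 in PBS-control kidneys. The peroxisomal Acot3 averaged 11.03 CPM in STZ-cKOt and 10.4 in STZ-control kidneys, and 11.6 in PBS-cKOt and 11.8 in PBS-control kidneys. Acot4, also peroxisomal, averaged 82.5 CPM in STZ-cKOt and 84.1 in STZ-control kidneys, and 92.02 in PBS-cKOt and 97.9 in PBS-control kidneys. These 4 are close relatives, and reads that fit several of them were not counted. Acot12, the cytosolic acetyl-CoA hydrolase, averaged 251 CPM in STZ-cKOt and 256 in STZ-control kidneys, and 296 in PBS-cKOt and 357 in PBS-control kidneys, and fell in PBS mice (−0.27, adjusted p = 0.0028) while its value in STZ mice was −0.03. Without the 7 libraries rich in fat cell markers, Acot12 had −0.19 in PBS mice with an adjusted p of 0.19.

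Of the other PPARA targets, Pdk4 had 26.1 to 69.9 CPM (median 35.9) in STZ-cKOt kidneys, against 10.6 to 30.7 CPM (median 19.7) in STZ-control kidneys. In the PBS groups it had 20.3 to 103 CPM (median 42.01) in PBS-cKOt kidneys, against 11.003 to 52.3 CPM (median 22.1) in PBS-control kidneys. The groups overlapped in both comparisons, with 7 of 9 STZ-cKOt kidneys but 1 of 9 PBS-cKOt kidneys above the whole control group. The log2 fold change was 1.14 ± 0.28 in STZ mice (adjusted p = 0.0023) and 0.83 ± 0.27 in PBS mice (adjusted p = 0.025, edgeR). In PBS mice limma voom with quality weights gave 0.66 with an adjusted p of 0.071, and leaving out the 7 libraries rich in fat cell markers gave 1.59 with an adjusted p of 4.6e-04. PBS-control 8, the library with the most signal of fat cell markers, had the highest Pdk4 of its group at 52.3 CPM. PBS-cKOt 8, the library with the least such signal (0.156 CPM), had the highest Pdk4 of its own group. Its 103 CPM stood apart from the other PBS-cKOt kidneys, which reached at most 49.8 CPM.

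Plin2, which coats lipid droplets, averaged 63.9 CPM in STZ-cKOt and 82.99 in STZ-control kidneys, and 64.8 in PBS-cKOt and 90.6 in PBS-control kidneys. It fell by 0.38 in STZ mice (adjusted p = 7.4e-04) and by 0.48 in PBS mice (adjusted p = 2.1e-05, edgeR) on the log2 scale. Angptl4, a secreted inhibitor of lipoprotein lipase, averaged 30.7 CPM in STZ-cKOt and 43.7 in STZ-control kidneys, and 23.3 in PBS-cKOt and 33.5 in PBS-control kidneys. Its log2 fold changes of −0.51 ± 0.22 and −0.52 ± 0.22 missed the threshold, with adjusted p of 0.094 and 0.078. Vnn1, a pantetheinase that releases vitamin B5 from pantetheine, averaged 128 CPM in STZ-cKOt and 131 in STZ-control kidneys, and 112 in PBS-cKOt and 118 in PBS-control kidneys, and did not pass (−0.03 and −0.08).

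Some markers of other cells were also called by genotype, and their part in these results was not tested. Over all tested genes 9.52% were higher and 10.1% lower in STZ mice, and 10.9% and 12.5% in PBS mice. A single call in lists as short as these does not stand apart from such shares. Of 13 proximal tubule markers, 2 rose and 5 fell in STZ-cKOt against STZ-control kidneys, and 0 rose and 4 fell in PBS-cKOt against PBS-control kidneys. Their medians were 0.02 and −0.21 on the log2 scale. Of 7 macrophage markers, 5 fell in STZ mice and 2 in PBS mice. Their summed level was 171 to 211 CPM in STZ-cKOt and 203 to 362 CPM in STZ-control kidneys, and 154 to 211 CPM in PBS-cKOt and 194 to 278 CPM in PBS-control kidneys. Endothelium also makes Cd36, and of 7 endothelial markers 0 were called in STZ mice (median −0.03, 5 of 7 below 0), while 1 was lower in PBS mice (median −0.29, 7 of 7 below 0, 5 with an unadjusted p under 0.05). Of 7 fibroblast and mural cell markers 1 fell in STZ mice and 4 fell in PBS mice, with medians of −0.19 and −0.27 and all 7 values below 0 in both. Of 4 distal convoluted tubule markers 2 rose in STZ mice and 1 in PBS mice. Of 5 intercalated cell markers 1 rose and 1 fell in STZ mice, and 3 rose in PBS mice. Fat cell markers had 0 of 6 called in STZ mice and 1 lower in PBS mice. Markers of the thick ascending limb, principal cells and podocytes had at most 1 called in either direction in each comparison. Without the 7 libraries rich in fat cell markers, 16 of the 43 genes fell in STZ mice and 12 in PBS mice, the latter from groups of fewer kidneys. The falls lost in PBS mice were those of Acads, Acot12, Decr1, Eci2 and Etfa. Of the 16 falls and 6 rises in STZ mice, 19 calls held under all 14 alternative settings, as did 15 of the 22 in PBS mice.

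STZ changed fewer of the genes. In STZ-cKOt against PBS-cKOt kidneys 1 member rose and 11 fell, against 6.00% higher and 5.63% lower over all tested genes. In STZ-control against PBS-control kidneys 0 rose and 6 fell, where 6.34% of all tested genes were higher and 5.93% lower. The median log2 fold change of the 43 was −0.06 in cKOt and −0.07 in control mice, and 0.00 in both over all tested genes. The STZ comparisons share no library with each other, but each shares a group with both knockout comparisons. DESeq2 and limma voom also called 0 members higher in control mice.

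Cd36, Slc27a2, Acads and Acot12 fell with STZ in both genotypes. The log2 fold change of Slc27a2 was −0.32 ± 0.06 (adjusted p = 1.7e-04) in STZ-cKOt against PBS-cKOt kidneys, whose values did not overlap, and −0.31 ± 0.06 (adjusted p = 2.5e-04, edgeR) in control mice. Acot12 fell by 0.24 in cKOt mice (adjusted p = 0.015) and by 0.48 in control mice (adjusted p = 4.6e-06) on the log2 scale, without overlap in either. The groups did not overlap for 2 members in cKOt mice and 1 in control mice, where 0.876% and 1.22% of all tested genes did not. Cd36 changed by −0.31 ± 0.10 in cKOt mice (adjusted p = 0.046) and by −0.39 ± 0.10 in control mice (adjusted p = 0.010). In cKOt mice the call for Cd36 was lost without STZ-cKOt 9 (−0.29, adjusted p = 0.086) and without PBS-control 8 (−0.31, adjusted p = 0.0503). In control mice it was lost without STZ-control 7 and 8 and PBS-cKOt 1 and 3 (−0.29, adjusted p = 0.071). Acads changed by −0.28 (adjusted p = 0.014) and −0.22 (adjusted p = 0.048, edgeR), and the second call was lost under 10 of 14 alternative settings. For Acads in control mice these include leaving out the library labelled STZ-control 2 (adjusted p = 0.077), PBS-control 8 (0.087) or STZ-cKOt 9 (0.052).

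In control mice the remaining falls were those of Etfa (−0.19, adjusted p = 0.029) and Acot4 (−0.22, adjusted p = 0.039). The call for Acot4 was lost without PBS-control 8 (adjusted p = 0.053). In cKOt mice the falls included Cpt2 (−0.22, adjusted p = 0.016), Crot (−0.30, adjusted p = 0.013) and Pex11a (−0.26, adjusted p = 7.1e-04). Ehhadh (−0.31), Acaa1b (−0.36), Acox2 (−0.17) and Echs1 (−0.13) also fell there, with adjusted p between 0.038 and 0.049 (edgeR). Acaa1b was lost under 6 of 14 alternative settings, with −0.23 and an adjusted p of 0.19 without STZ-control 7 and 8 and PBS-cKOt 1 and 3, and −0.22 and an adjusted p of 0.16 by limma voom. Ehhadh was lost under 4, with adjusted p of 0.051 to 0.075. The calls of Acox2 and Echs1 were lost without STZ-cKOt 9 (adjusted p of 0.055 and 0.062), and that of Echs1 also without the library labelled STZ-control 2 (0.052) or PBS-control 8 (0.054). Fabp3 rose with STZ in cKOt mice (0.36 ± 0.09, adjusted p = 0.0081) and had a value of 0.10 in control mice. Pdk4, induced by fasting in many tissues, had 0.06 ± 0.27 and −0.25 ± 0.28, and Angptl4 had 0.40 ± 0.22 and 0.38 ± 0.22. None of these 4 values passed.

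Some markers of other cells were called with STZ as well, and their part in these results was not tested. Over all tested genes 6.00% were higher and 5.63% lower in cKOt mice, and 6.34% and 5.93% in control mice. Here too a single call in a short list does not stand apart from such shares. Of 6 fat cell markers tested, 1 fell in STZ-cKOt against PBS-cKOt kidneys and 5 fell in STZ-control against PBS-control kidneys. Of 13 proximal tubule markers 1 rose and 6 fell in cKOt mice and 0 rose and 4 fell in control mice, with medians of −0.19 and −0.22 on the log2 scale. Of 7 endothelial markers 3 rose in cKOt mice and 0 in control mice. Of 4 distal convoluted tubule markers 2 rose in cKOt mice and 3 in control mice. Macrophage markers had 1 of 7 lower in cKOt mice and 3 of 7 higher in control mice. Fibroblast and mural cell markers had 3 of 7 higher in cKOt mice and 1 of 7 higher in control mice, with all 7 values above 0 in both. The other tubule and podocyte lists had at most 1 marker called in either direction. Without the 7 libraries above 20 CPM of fat cell markers, the number of members lower with STZ was 5 in cKOt and 2 in control mice, from groups of fewer kidneys. In cKOt mice the calls lost were those of Cd36, Acads, Ehhadh, Acaa1b, Acox2 and Echs1, with adjusted p of 0.054 for Acads to 0.15 for Acox2. In control mice they were those of Cd36, Acads, Etfa and Acot4, with adjusted p of 0.053 for Acot4 to 0.28 for Acads. Leaving out STZ-control 7 and 8 and PBS-cKOt 1 and 3 gave 8 and 2. The calls lost then were those of Acads, Acaa1b and Echs1 in cKOt mice and of the same 4 genes, Cd36, Acads, Etfa and Acot4, in control mice. Scaling by the upper quartile gave 9 and 3, and it moved the share of higher genes among all calls in control mice to 65.2%, against 51.7% with TMM scaling. Of the calls, 6 of 12 in cKOt mice and 2 of 6 in control mice, those of Slc27a2 and Acot12, held under all 14 settings.

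**Figure D3:**
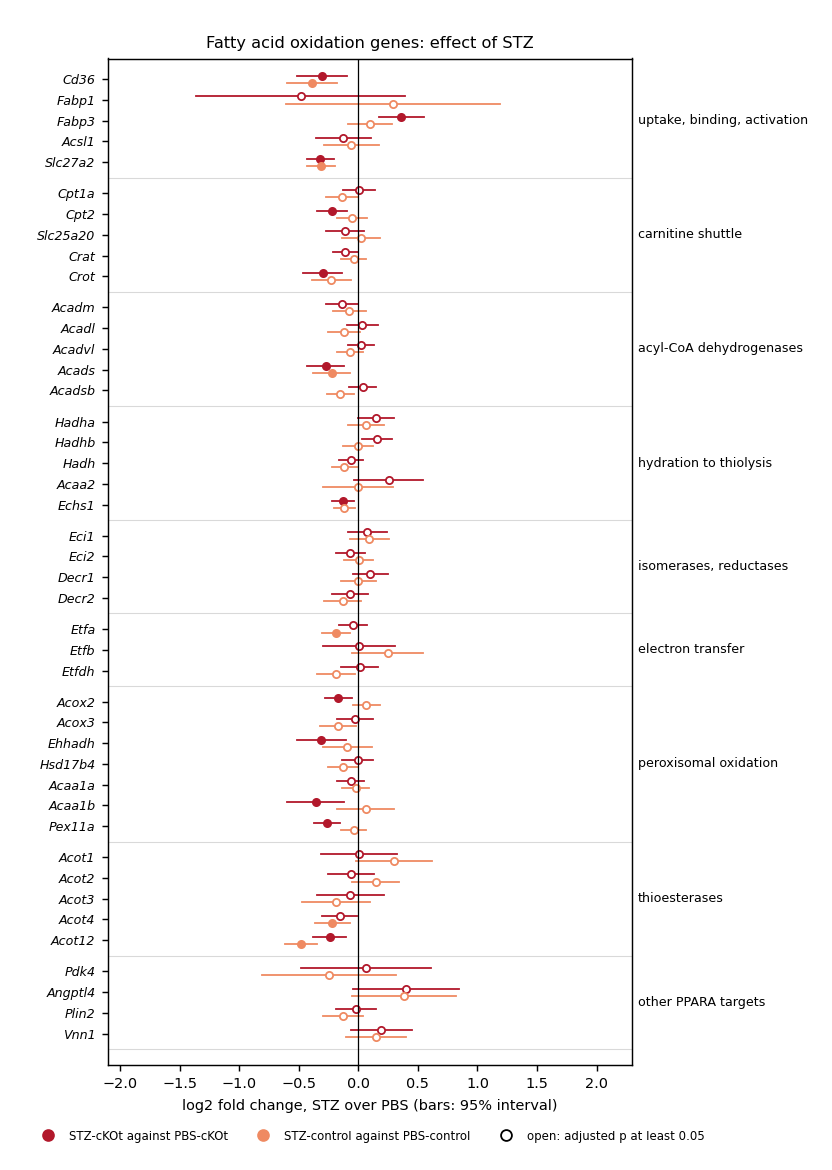
Log2 fold change of each of the 43 genes, STZ over PBS, with its 95% interval, in cKOt mice (red) and control mice (orange). Filled points passed an adjusted p of 0.05. The peroxisomal genes lie at or left of 0 in cKOt mice, and Slc27a2, Cd36, Acads and Acot12 are filled in both.

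Whether the genotype effect differed between treatments was tested as an interaction, the log2 difference in STZ mice minus that in PBS mice. No member passed: 0 higher and 0 lower, where 0% and 0.0448% of all tested genes did. The smallest adjusted p of a member was 0.33. An unadjusted p under 0.05 (edgeR) was found for 6 of the 43 members and for 1944 of the 15637 tested genes. DESeq2 and limma voom also called 0 members. The 6 were Acox2 (−0.23 ± 0.08), Pex11a (−0.22 ± 0.07), Acaa1b (−0.42 ± 0.17), Acot12 (0.24 ± 0.10), Acadsb (0.19 ± 0.08) and Fabp3 (0.27 ± 0.13). The first 3 are peroxisomal and negative, and the others are not peroxisomal and positive. They were picked by unadjusted p, so this split does not show a pattern by compartment. Of all 13 peroxisomal genes, 8 had a value below 0 and 5 above.

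The compartments were then set side by side. In STZ mice 0 of 13 peroxisomal genes rose and 6 fell, with a median log2 fold change of −0.17, while 5 of 21 mitochondrial genes rose and 7 fell, with a median of −0.04. In PBS mice 1 peroxisomal gene rose and 5 fell (median −0.14), and 3 mitochondrial genes rose and 8 fell (median −0.13). With STZ in cKOt mice 0 peroxisomal genes rose and 6 fell, all 13 values lay below 0 and the median was −0.16. Of the mitochondrial genes 0 rose and 3 fell there, with a median of 0.01. With STZ in control mice 0 rose and 2 fell in each compartment, with medians of −0.13 for peroxisomal and −0.07 for mitochondrial genes. Of all tested genes 9.52% rose and 10.1% fell with the deletion in STZ mice, and 10.9% and 12.5% in PBS mice. With STZ 6.00% rose and 5.63% fell in cKOt mice, and 6.34% and 5.93% in control mice. Beside these, the mitochondrial falls with STZ in control mice were 9.52% of 21 genes. The peroxisomal rise in PBS mice was 7.69% of 13 genes. The counts by compartment describe genes measured in the same libraries, and no test was made over either list.

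As a level per kidney, the mean log2 CPM of the 13 peroxisomal genes minus that of the 21 mitochondrial genes was −0.09 to 0.11 in STZ-cKOt kidneys (median 0.02) and 0.11 to 0.25 in STZ-control kidneys (median 0.20). It was 0.07 to 0.26 in PBS-cKOt (median 0.16) and 0.13 to 0.32 in PBS-control kidneys (median 0.25). The STZ-cKOt kidneys held the lowest values, and the highest of them, 0.114, overlapped the lowest STZ-control value of 0.113. The mean of the peroxisomal genes was 7.22 ± 0.09 log2 CPM in STZ-cKOt kidneys, against 7.42 ± 0.07 in STZ-control kidneys, and 7.38 ± 0.08 in PBS-cKOt kidneys, against 7.54 ± 0.10 in PBS-control kidneys (SD, n = 9 each). That of the mitochondrial genes was 7.21 ± 0.14 log2 CPM in STZ-cKOt kidneys, against 7.24 ± 0.07 in STZ-control kidneys, and 7.22 ± 0.12 in PBS-cKOt kidneys, against 7.29 ± 0.10 in PBS-control kidneys.

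**Figure D4:**
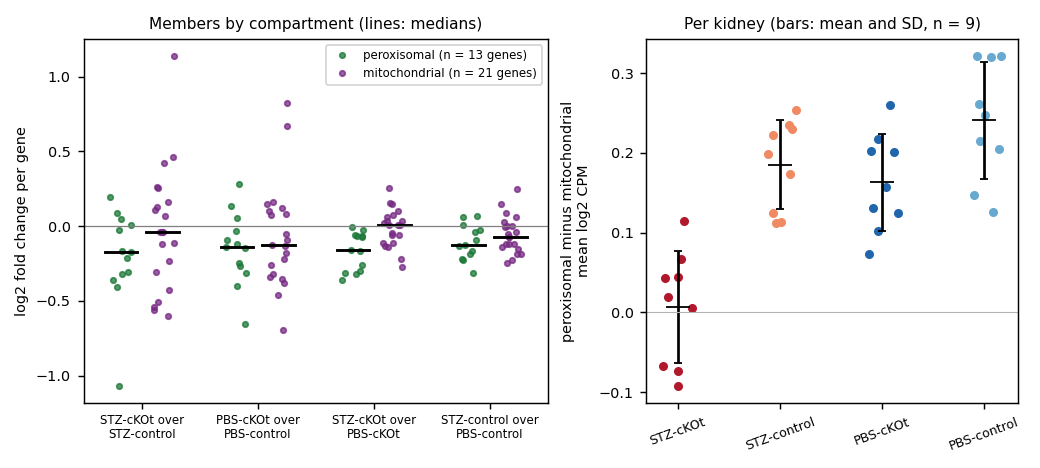
Left, log2 fold change of each peroxisomal (green) and mitochondrial (purple) gene in the 4 pairwise comparisons, with the median as a line. Right, mean log2 CPM of the peroxisomal minus the mitochondrial genes in each kidney, with mean and SD of 9 mice, lowest in STZ-cKOt kidneys.

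Per exon length, in TPM (transcript level scaled to exon length and a fixed total), levels spanned more than 3 orders among the members in PBS-control kidneys. Slc27a2 stood first at 3001 ± 283 TPM, far from Acadm (651 ± 70.4 TPM), Cd36 (627 ± 91.6 TPM) and Ehhadh (578 ± 93.8 TPM), whose values did not differ beyond their spread (SD, n = 9 each). Etfa (478 ± 40.3 TPM) and Acadl (461 ± 48.3 TPM) followed and were also within their spread of each other. In the carnitine shuttle the level per length was 327 ± 36.8 TPM for Crot, 188 ± 22.2 TPM for Cpt1a, 178 ± 22.7 TPM for Cpt2, 84.6 ± 6.74 TPM for Crat and 25.7 ± 3.51 TPM for Slc25a20. The lowest were Acot2 (16.4 ± 2.18 TPM), Acot3 (8.26 ± 1.41 TPM) and Fabp1 (1.42 ± 0.932 TPM).

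**Figure D5:**
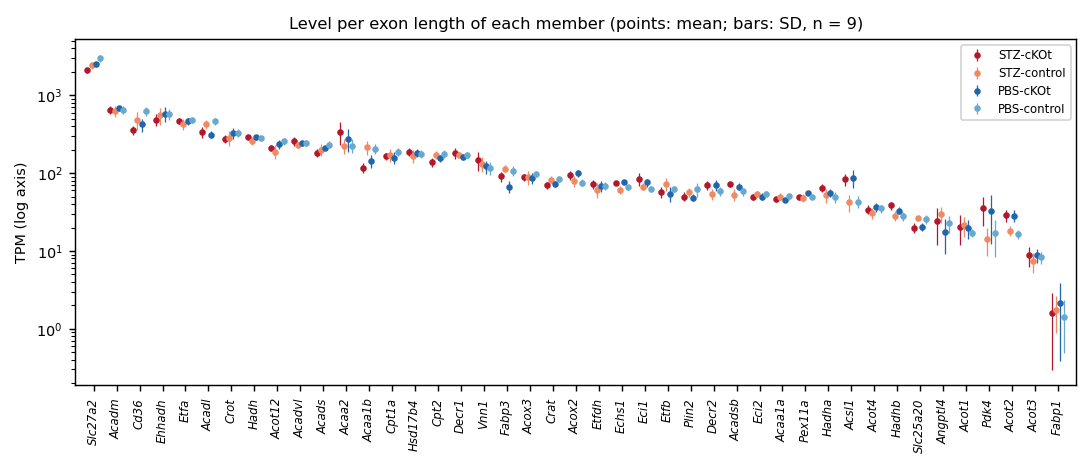
Mean and SD of each member in TPM on a log axis, 9 kidneys a group, ordered by the PBS-control level. Slc27a2 lies above all others and Fabp1 below all others in each of the 4 groups.

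Members varied little between mice of a group: the coefficient of variation, as the median over the 4 groups, had a median of 10.7% over the 43 genes. It was lowest for Echs1 at 4.94% and reached 44.8% among genes other than Fabp1. High values gathered in few libraries. STZ-cKOt 9 had the highest level of its group for 27 of 43 members, PBS-cKOt 1 for 21, and PBS-control 1 and 8 for 16 each. Without STZ-cKOt 9 the count of members in STZ mice was 5 higher and 18 lower.

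Other genes of the pathway were counted from lists. Of 38 tested among 39 other fatty acid oxidation genes, 2 rose and 10 fell in STZ-cKOt against STZ-control kidneys, and 2 rose and 14 fell in PBS-cKOt against PBS-control kidneys. In STZ mice these are 5.26% and 26.3% of the 38, against 9.52% and 10.1% of all tested genes. In PBS mice they are 5.26% and 36.8%, against 10.9% and 12.5%. Slc22a5, the carnitine transporter of the cell membrane, averaged 159 ± 24.1 CPM in STZ-cKOt and 248 ± 25.3 CPM in STZ-control kidneys, and 148 ± 19.7 CPM in PBS-cKOt and 265 ± 7.74 CPM in PBS-control kidneys (SD, n = 9 each). It fell by 0.64 in STZ mice (adjusted p = 1.8e-08) and by 0.84 in PBS mice (adjusted p = 2.2e-11, edgeR) on the log2 scale. Nudt19, a peroxisomal hydrolase of CoA, fell by 1.33 in STZ mice (adjusted p = 1.9e-09). With STZ, 2 of these genes rose and 7 fell in cKOt mice (5.26% and 18.4%, against 6.00% and 5.63% of all tested genes). In control mice 0 rose and 11 fell (0% and 28.95%, against 6.34% and 5.93%). Among the falls in control mice were Abcd3, a peroxisomal importer of acyl-CoA (−0.26, adjusted p = 0.0015), Acad10 (−0.32) and Acad9 (−0.33). In cKOt mice they included Nudt19 (−0.95, adjusted p = 1.1e-05, edgeR).

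Among 19 tested genes of lipid droplets and further PPAR targets, of 20 listed, 1 rose and 5 fell in STZ-cKOt against STZ-control kidneys, and 0 rose and 8 fell in PBS-cKOt against PBS-control kidneys. In STZ mice these are 5.26% and 26.3% of the 19, against 9.52% and 10.1% of all tested genes. In PBS mice they are 0% and 42.1%, against 10.9% and 12.5%. Ucp2, an uncoupling protein of the inner mitochondrial membrane, fell by 1.24 and 1.27 on the log2 scale, and Abhd5, the activator of the lipase that opens lipid droplets, fell by 0.50 in PBS mice (adjusted p = 5.7e-10, edgeR). With STZ 4 rose and 2 fell in cKOt mice (21.05% and 10.5%, against 6.00% and 5.63% of all tested genes). In control mice 3 rose and 5 fell (15.8% and 26.3%, against 6.34% and 5.93%). Fat cells hold many of these gene products, and in the same comparisons 1 of 6 fat cell markers fell in cKOt mice (median −1.68) and 5 of 6 fell in control mice (median −2.91), whose part in these counts was not tested. Named by the smallest adjusted p, these were Pdk1 (0.43) and Plin5 (−0.86) in cKOt mice and G0s2 (−0.63, adjusted p = 0.0039) in control mice.

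Of 18 tested regulators among 19, 3 rose and 3 fell in STZ mice and 1 rose and 5 fell in PBS mice with the deletion. In STZ mice these are 16.7% and 16.7% of the 18, against 9.52% and 10.1% of all tested genes. In PBS mice they are 5.56% and 27.8%, against 10.9% and 12.5%. Ppara itself had 21.2 to 56.1 CPM (median 41.5) in STZ-cKOt kidneys, against 9.82 to 61.5 CPM (median 47.9) in STZ-control kidneys. In PBS mice it had 10.2 to 58.8 CPM (median 45.7) in PBS-cKOt kidneys, against 39.5 to 76.6 CPM (median 63.7) in PBS-control kidneys. The groups overlapped widely, and the log2 fold changes of −0.01 ± 0.26 in STZ mice and −0.63 ± 0.26 in PBS mice (adjusted p = 0.072, edgeR) did not pass. Ppard, the PPAR of most tissues, averaged 65.5 ± 15.7 CPM in STZ-cKOt and 13.6 ± 2.38 CPM in STZ-control kidneys, and 114 ± 21.4 CPM in PBS-cKOt and 13.1 ± 1.64 CPM in PBS-control kidneys (SD, n = 9 each). It rose with the deletion by 2.27 ± 0.12 in STZ mice (adjusted p = 3.1e-17) and by 3.12 ± 0.13 in PBS mice (adjusted p = 5.0e-21) on the log2 scale, without overlap of the groups in either. It fell with STZ in cKOt mice (−0.80, adjusted p = 8.0e-06) and was the 1 regulator to pass the interaction test (−0.86, adjusted p = 0.039). Ppargc1a, a coactivator of mitochondrial genes, rose in STZ mice (0.27, adjusted p = 0.023) and had −0.01 in PBS mice. With STZ 0 regulators rose and 1 fell in cKOt mice (0% and 5.56%, against 6.00% and 5.63% of all tested genes). In control mice 0 rose and 3 fell (0% and 16.7%, against 6.34% and 5.93%).

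Promoter sequence was read for 37 of the 43 genes from RefSeq (GRCm38.p6) and set beside 27025 genes. It covered the 250 bases before a RefSeq start, on both strands. The E-box CACGTG, the sequence BMAL1 and its partner are known to bind, was found in 1 of 37 members (2.70%) and in 6.86% of all genes. The D-box TTATGTAA was found in 0 members and 0.977% of genes, and its variant TTATGCAA in 0 members and 0.829% of genes. The RORE, ANNTAGGTCA, bound by the ROR and REV-ERB receptors, was found in 1 member and 0.722% of genes. The direct repeat AGGTCANAGGTCA, the form bound by PPAR with its partner RXR, was found in 0 members and 0.0407% of genes, and AGGNCANAGGNCA in 1 member and 0.400% of genes. The single AGGTCA, which is part of the RORE and of the repeats, was found in 10 members (27.0%) and 15.8% of genes. A match is a run of letters in a short window, and says nothing of distant elements.

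The matches are shown for the 3 genes that hold a clock or PPAR motif, and for Cpt1a and Cd36, which fell in both knockout comparisons. Each is written 5′ to 3′ on the gene's strand with the match in capitals. In Fabp1 (chr6:71199782-71199826, plus strand) the loose repeat lies on the other strand and begins 67 bases before the start. In Plin2 (chr4:86670238-86670307, minus strand) it is the RORE, on the other strand, 218 bases before the start. In Acot4 (chr12:84038283-84038348, plus strand) it is the E-box, 66 bases before the start. In Cpt1a (chr19:3323177-3323242, plus strand) and Cd36 (chr5:17836089-17836146, minus strand) it is the single AGGTCA, on the other strand. It lies 94 and 228 bases before the RefSeq start used. In GENCODE, Cpt1a begins at 3322334 and Cd36, on the minus strand, at 17888801. These matches thus lie inside the annotated genes, before an internal start and not before the annotated beginning of the gene.
Fabp1: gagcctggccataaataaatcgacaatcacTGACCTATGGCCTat
Plin2: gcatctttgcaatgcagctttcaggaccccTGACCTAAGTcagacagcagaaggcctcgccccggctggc
Acot4: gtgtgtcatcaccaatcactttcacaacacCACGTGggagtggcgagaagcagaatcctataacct
Cpt1a: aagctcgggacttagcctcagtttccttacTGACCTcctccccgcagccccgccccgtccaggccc
Cd36: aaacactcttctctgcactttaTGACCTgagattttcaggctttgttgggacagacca
Of these, Plin2, Cpt1a and Cd36 fell with the deletion, Acot4 passed in neither knockout comparison, and Fabp1 was near 0 CPM in every group. Cpt1a and Cd36 were picked because they fell, so their falls do not link the single AGGTCA to the deletion. Among members with AGGTCA that are not shown, Slc27a2 fell in both comparisons, and Acadm and Acadvl passed in neither. In PBS mice only, Acot12 fell and Echs1 rose.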

How the data were processed

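Poly(A) RNA of whole kidneys was sequenced from stranded libraries. The authors trimmed reads with cutadapt 1.8, aligned them to GRCm38 with STAR 2.5.3a and counted them per gene with HTSeq 0.9.1, per the submitters' processing notes, and the deposited values are raw counts. The strand setting of the counting is not given in the sources used here. Multi-mapped reads, 30.9 to 42.8% of all, were not assigned to genes. Depth was 16.9 to 22.3 M assigned reads.

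Groups came from the labels. Genes passing filterByExpr (15637) were fitted with edgeR 4.0.16 in R 4.3.3: TMM scaling, 1 mean per group, all 36 libraries, quasi-likelihood F test with Benjamini-Hochberg adjustment over all tested genes, threshold 0.05. Every adjusted p is from this edgeR fit unless another tool is named. SE is the log2 fold change divided by the square root of F. CPM used TMM library sizes and TPM the exon length of GENCODE M21. Alternatives included DESeq2 1.42.0 and limma 3.58.1. The scripts were tested on simulated data. Each group held 9 animals, per the series' design text. Replicate numbers are not stated to pair animals, and the main fit did not pair libraries by them. Members and lists were chosen with earlier results of these data known. All members were named, and those called with a log2 fold change of at least 0.5 in either direction were given by range and median.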

Additional observations from a re-analysis of the deposited data

Results flagged for a closer look

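Within each group of 9, the highest or lowest kidney was compared with its neighbour, for the 43 genes and for the level of peroxisomal minus mitochondrial genes. Of these 176 sets of 9 values, 25 had a gap above Dixon's 95% critical value, all of them of single genes. Chance gives about 1 in 20, and neighbouring genes of 1 library are not independent. STZ-cKOt 9 was far above its group for 10 genes: Cpt2 (150 CPM), Acadvl (313 CPM), Angptl4 (63.74 CPM), Acot1 (59.26 CPM), Acot2 (32.1 CPM), Acot3 (18.49 CPM), Slc25a20 (46.15 CPM), Acaa2 (330.9 CPM), Eci2 (119.6 CPM) and Pex11a (65.14 CPM). PBS-cKOt 1 was far above its group for Eci2 (136.9 CPM), Echs1 (294 CPM), Decr1 (288.4 CPM) and Fabp3 (31.92 CPM).

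PBS-control 8 was far above its group for Pdk4 (52.31 CPM), Slc25a20 (66.4 CPM), Plin2 (132.9 CPM) and Acsl1 (251.6 CPM). It also had the highest sum of fat cell markers. PBS-cKOt 8 was far above its group for Ehhadh (929 CPM) and Pdk4 (103.4 CPM), and had the lowest sum of fat cell markers (0.156 CPM). The other high values were Acot3 in STZ-control 9 (16.09 CPM), Etfdh in PBS-control 1 (255 CPM) and Pex11a in PBS-control 3 (78.33 CPM). Low values were Echs1 in PBS-control 7 (196.4 CPM) and Etfa in STZ-control 8 (266.1 CPM). The cause was not tested.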

How the results depend on the processing

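Of 62 calls of members in the 4 pairwise comparisons, 42 held under all 14 alternatives, 20 were lost under at least 1 and 0 reversed. Of the alternatives 4 were chosen after seeing the data: leaving out PBS-control 8, STZ-cKOt 9, the 7 libraries with over 20 CPM of fat cell markers, or 5 doubted libraries together (the library labelled STZ-control 2, STZ-control 7 and 8, PBS-cKOt 1 and 3). Counts of members in the knockout comparisons stayed within 1.5 times. The number lower with STZ in control mice, 6, was 3 with no filter or upper quartile scaling, and 2 without the 4 libraries apart on the second principal component, without the 7 or without the 5. The number lower with STZ in cKOt mice, 11, was 6 with no filter and 5 without the 7. The cause was not tested. Over all 54 pairs of same-numbered libraries of different groups, the median correlation of deviations was 0.0227, against 0.00489 for other pairs. It exceeded 0.1 in 14 of the 54, a count not made for other pairs. There were 7 libraries that correlated best with their own number. With a replicate block the counts higher and lower were 7 and 18 for the knockout in STZ mice, 5 and 18 in PBS mice, 1 and 9 for STZ in cKOt mice, 0 and 7 in control mice, and 0 and 0 for the interaction. The interaction has no value when only the groups of 1 contrast are fitted. Fabp1, at under 2 CPM, is limited by depth.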
